A study of Mus musculus with 6 samples.

Results

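Intermediate filament genes and genes of the switch between mesenchymal and epithelial cell states were followed in mouse embryonic fibroblasts (MEFs) that overexpressed Fbxl10. The set comprised 10 genes of 19936 measured: the simple keratin genes Krt7, Krt8, Krt18 and Krt19, the vimentin gene Vim, the nestin gene Nes, and the transcription factor genes Snai2, Zeb1, Zeb2 and Twist1. They were chosen by name and function, and each was read from its 1 probe set that matches a single gene. The first group held 3 RNA samples of Tet-off HA-Fbxl10 cells, a stable MEF-derived line transfected with HA-tagged Fbxl10 cDNA plus a plasmid for Hygromycin resistance and selected as clones for expression of the tagged protein. The second held 3 RNA samples of the untransfected Tet-off control cells. Both groups share the Tet-off background, that is, a transactivator which tetracycline switches off. Fbxl10, now named Kdm2b, is a histone demethylase that binds CpG-rich DNA and recruits a Polycomb complex. No empty-vector or resistant control was among the samples, so Fbxl10 on the one side and transfection, selection or choice of clone on the other cannot be told apart. The sources used here do not say how many clones gave the RNA or whether replicates were separate cultures, so p-values cover just the variation among these samples, possibly technical.

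Keratins are the intermediate filaments of epithelial cells. They form filaments only as pairs of a type II chain, such as Krt7 or Krt8, with a type I chain, such as Krt18 or Krt19. Fibroblasts build their filaments from vimentin, and nestin copolymerises with vimentin in progenitor cells and in some cultured mesenchymal cells. The Snai and Zeb zinc-finger factors repress epithelial genes through a short DNA word of the E-box type, and Twist1, a basic helix-loop-helix factor, acts in the same direction. Together they mark and drive the mesenchymal state.

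The promoter windows of the keratin genes are shown first because that E-box word links the repressor genes of the set with its keratin genes. Windows of 250 bases before to 50 after the annotated start, from a RefSeq table of build GRCm38.p6, were searched for 7 of the 10 genes. The table held none for Krt19 and Snai2. Zeb1 was left out of the search, so whether its promoter holds the word is not given here. The 6 letters CACCTG, or CAGGTG, which is the same word on the other strand, were found in the windows of Krt7, Krt8 and Krt18, once in each. They were not found in those of Vim, Nes and Twist1 or in any of the 4 windows of Zeb2. Of 32851 windows of the same length over all genes, 20.2% hold the word. In the sequences below, given 5′ to 3′ on the strand of the gene, capitals mark it. The windows are chr15:101412153-101412452 on the plus strand for Krt7, chr15:102004293-102004592 on the minus strand for Krt8 and chr15:102027966-102028265 on the plus strand for Krt18.
Krt7: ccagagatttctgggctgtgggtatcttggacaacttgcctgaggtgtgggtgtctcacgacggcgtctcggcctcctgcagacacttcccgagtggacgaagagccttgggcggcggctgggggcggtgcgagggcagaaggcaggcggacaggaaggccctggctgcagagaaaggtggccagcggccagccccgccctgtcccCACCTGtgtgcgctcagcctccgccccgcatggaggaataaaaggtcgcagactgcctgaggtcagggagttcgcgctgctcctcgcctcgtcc
Krt8: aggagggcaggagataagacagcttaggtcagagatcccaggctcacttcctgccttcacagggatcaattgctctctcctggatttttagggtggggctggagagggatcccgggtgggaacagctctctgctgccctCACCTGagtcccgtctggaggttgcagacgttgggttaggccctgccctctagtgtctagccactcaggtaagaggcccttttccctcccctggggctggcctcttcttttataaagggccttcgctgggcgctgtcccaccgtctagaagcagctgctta
Krt18: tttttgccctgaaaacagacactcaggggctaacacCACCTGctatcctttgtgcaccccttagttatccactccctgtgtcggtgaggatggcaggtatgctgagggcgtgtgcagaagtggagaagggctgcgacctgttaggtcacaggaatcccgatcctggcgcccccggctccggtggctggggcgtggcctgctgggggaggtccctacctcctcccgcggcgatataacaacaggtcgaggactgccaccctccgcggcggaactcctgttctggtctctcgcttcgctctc
The word begins 44 bases before the annotated start in Krt7, 111 bases before it in Krt8 and 214 bases before it in Krt18. A match of letters is a description of the window and does not show that a factor binds there. The dinucleotide CG, the target of the DNA-binding domain of Kdm2b, occurs 21 times in the window of Krt7, 17 times in that of Krt18 and 6 times in that of Krt8, against a median of 7 over all windows.

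Expression was read as log2 values, on which a difference of 1 is a doubling, and differences are HA-Fbxl10 minus control. Kdm2b itself had 9.77, 9.75 and 9.58 in HA-Fbxl10 cells, against 7.38, 7.45 and 7.28 in control cells, 5.03-fold higher in the HA-Fbxl10 cells. Array medians ran between 4.69 and 4.79, and arrays correlated at 0.994 to 0.996 within groups and 0.990 to 0.992 between groups, so no array stood apart. Tests are limma's moderated test with Benjamini-Hochberg adjustment over all 19936 genes and a threshold of 0.05. By it 21.1% of all genes passed, 10.5% higher and 10.6% lower, and among genes above the median level 37% passed, against 5.21% of the other genes.

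Among the 10 genes, Krt7, Krt19 and Zeb2 rose, Nes fell and 6 did not pass the test. All 4 that passed belong to the 9 genes of the set above the median level of all genes, so their share is close to that of other genes of such levels. The groups were fully separated for 5 of the 10 genes, 4 with the HA-Fbxl10 arrays above and 1 with them below, against 36% of all genes (17.9% above and 18.1% below). That share was not computed for genes above the median level alone, where 9 of the 10 lay, so no excess can be read from it. The median log2 difference of the set was 0.04, beside -0.0043 over all genes. The largest change, that of Krt19, ranked 205 among the 2097 genes that rose.

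**Figure D1:**
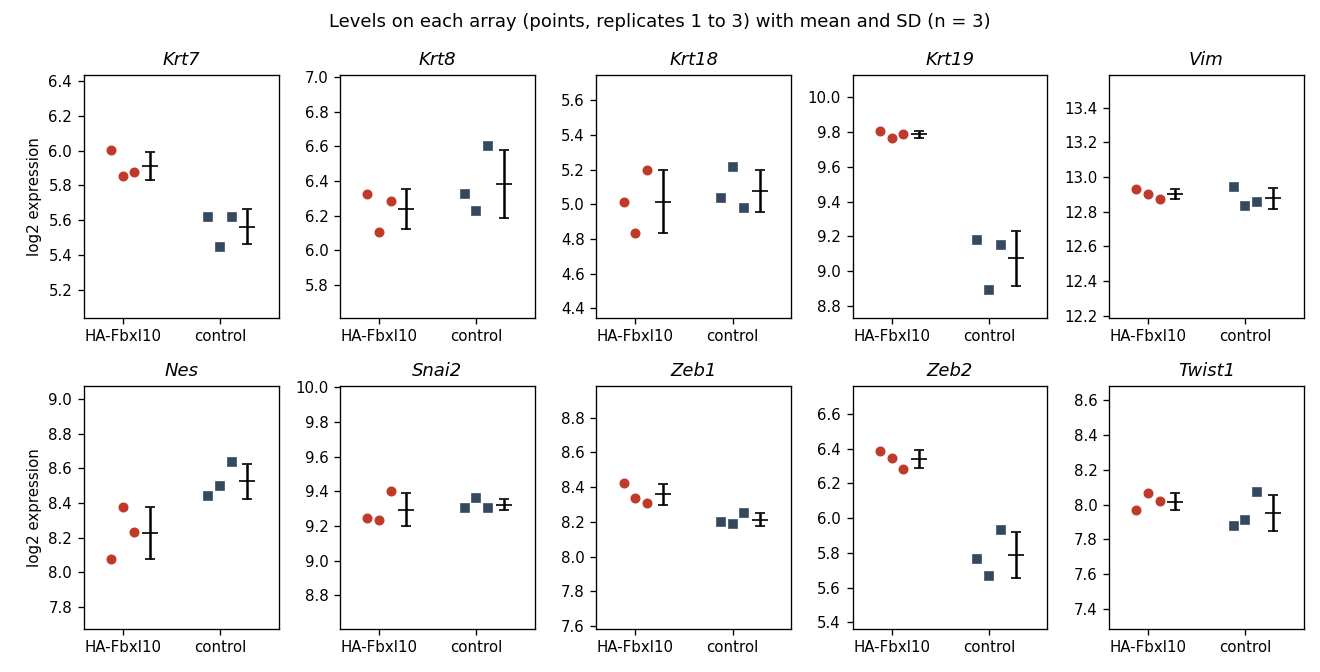
Log2 expression of the 10 genes on each array, with points for HA-Fbxl10 replicates 1 to 3 on the left and control replicates 1 to 3 on the right, and bars for mean and SD (n = 3); every panel spans the same number of log2 units. The groups are separate for Krt7, Krt19, Nes, Zeb1 and Zeb2 and overlap for the other 5 genes.

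Krt19, the smallest type I keratin, which lacks the tail domain of its relatives, had levels of 9.81, 9.77 and 9.79 in HA-Fbxl10 cells, against 9.18, 8.89 and 9.15 in control cells. The groups were far apart, and the HA-Fbxl10 arrays lay much closer together (SD 0.02, n = 3) than the control arrays (SD 0.16, n = 3). Krt19 rose by 0.71 ± 0.08 (SE), which is 1.64-fold (limma adjusted p = 0.000385). Krt7, the type II keratin of ducts and simple glandular epithelia, had 6.01, 5.85 and 5.88 in HA-Fbxl10 cells and 5.62, 5.45 and 5.62 in control cells. It rose by 0.35 ± 0.08 (SE), 1.27-fold (limma adjusted p = 0.00948), with no overlap between the groups. Krt7 lay just above the median level of all genes (5.36), where RMA compresses differences.

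Krt8 and Krt18, which pair with each other in simple epithelia and lie next to each other among the measured genes of chromosome 15, did not pass the test. Krt8 had 6.33, 6.11 and 6.28 in HA-Fbxl10 cells, against 6.33, 6.22 and 6.60 in control cells. The highest value was that of control replicate 3, and the groups overlapped. The difference was -0.15 with a 95% interval of -0.38 to 0.09 (limma adjusted p = 0.404). Krt18 had 5.01, 4.83 and 5.20 in HA-Fbxl10 cells, against 5.04, 5.21 and 4.98 in control cells. Both groups lay below the median level of all genes and covered nearly the same range, with a difference of -0.06 and an interval of -0.29 to 0.17 (limma adjusted p = 0.757). The 2 keratins that rose were thus 1 type II and 1 type I chain. The change of Krt7 exceeded that of Krt8 by 0.50 ± 0.09 (SE) on the log2 scale, that of Krt19 exceeded that of Krt8 by 0.86 ± 0.10 and that of Krt19 exceeded that of Krt18 by 0.77 ± 0.19. In each comparison the arrays of the groups were fully separated, and the two-sided exact permutation test gave p = 0.1, the smallest it allows with 3 arrays against 3 (also 0.1 when adjusted over the 5 gene pairs compared). Each pair set a gene that passed against 1 that did not. This choice favoured separation, so these p-values add no support.

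Vim, the main filament protein of fibroblasts, had 12.93, 12.90 and 12.87 in HA-Fbxl10 cells and 12.94, 12.83 and 12.85 in control cells. The ranges coincided almost entirely. The difference was 0.03 with a 95% interval of -0.12 to 0.17 (limma adjusted p = 0.845), so a change of more than 0.17 in either direction lies outside the interval.

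Nes had 8.08, 8.38 and 8.23 in HA-Fbxl10 cells, against 8.44, 8.50 and 8.64 in control cells. The lowest value was that of HA-Fbxl10 replicate 1, and the nearest arrays of the groups, HA-Fbxl10 replicate 2 and control replicate 1, were within 0.1 of each other. Nes fell by 0.30 ± 0.09 (SE), and the limma adjusted p of 0.0440 was just inside the threshold. The call ended without any 1 array other than HA-Fbxl10 replicate 2, with adjusted p-values of 0.0591, 0.0828 and 0.121 without control replicates 1, 2 and 3 and of 0.150 and 0.111 without HA-Fbxl10 replicates 1 and 3.

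Of the transcription factor genes, Zeb2 alone passed the test. Zeb2, a repressor that also binds Smad proteins, had 6.39, 6.35 and 6.28 in HA-Fbxl10 cells, against 5.77, 5.67 and 5.93 in control cells. All HA-Fbxl10 arrays lay well above all control arrays. Zeb2 rose by 0.55 ± 0.08 (SE), 1.47-fold (limma adjusted p = 0.00112). Its paralogue Zeb1 had 8.43, 8.34 and 8.31 in HA-Fbxl10 cells and 8.20, 8.19 and 8.25 in control cells. The groups did not overlap, but the difference was small, 0.15 with a 95% interval of 0.0017 to 0.29, and did not pass after adjustment (limma adjusted p = 0.155). The change of Zeb2 exceeded that of Zeb1 by 0.41 ± 0.06 (SE) and that of Snai2 by 0.58 ± 0.12, with an exact permutation p of 0.1 for each, again the smallest possible. These pairs, too, set a gene that passed against 1 that did not, so the p-values add no support.

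Snai2, also called Slug, had 9.24, 9.24 and 9.40 in HA-Fbxl10 cells, against 9.31, 9.36 and 9.31 in control cells. The control values lay inside the range of the HA-Fbxl10 values, and the difference was -0.03 with an interval of -0.18 to 0.13 (limma adjusted p = 0.837). Twist1 had 7.97, 8.06 and 8.02 in HA-Fbxl10 cells and 7.88, 7.91 and 8.07 in control cells. Control replicate 3 was the highest of the 6 arrays, and the difference was 0.06 with an interval of -0.10 to 0.23 (limma adjusted p = 0.631).

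**Figure D2:**
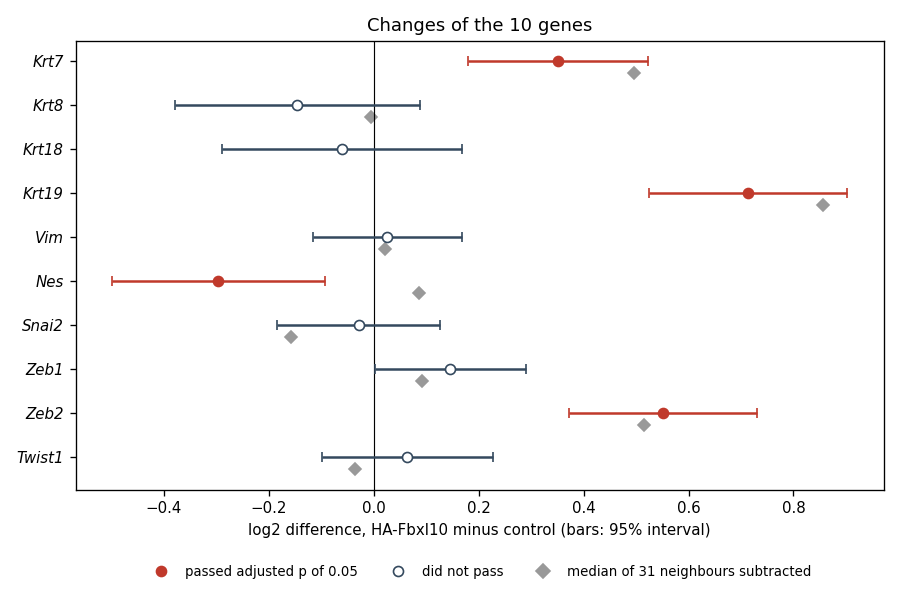
Log2 difference, HA-Fbxl10 minus control, of the 10 genes with 95% intervals from limma, and as diamonds the difference after the median of the 31 neighbouring expressed genes was subtracted (Krt18 is below the median level and has none). Krt19 (0.71), Zeb2 (0.55) and Krt7 (0.35) are right of 0 by both measures, while Nes is at -0.30 and, relative to its neighbours, at 0.086.

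Since neighbouring genes can share a change, each gene was set against the 31 nearest other expressed genes of its chromosome, an expressed gene being one above the median level over all arrays. Around Nes, on chromosome 3, 23 of the 31 neighbours fell and 1 rose, with a median of -0.38. Nes fell less than that, and 21 of the 31 neighbours had a lower log2 difference. Relative to this median Nes was at 0.086 (limma adjusted p = 0.617), so the fall of Nes was no larger than that of the genes around it. The neighbours include Crabp2, the retinoic acid carrier next to Nes, at -2.93.

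The 3 rising genes stood against or apart from their surroundings. Around Krt19, on chromosome 11, 8 neighbours fell and 1 rose (median -0.14), and all 31 had a lower log2 difference than Krt19. Jup, the next expressed gene on 1 side, encodes the junction protein plakoglobin and fell by 0.47. Around Krt7, on chromosome 15, 12 neighbours fell and 2 rose (median -0.15). This median is the value of Krt8, itself 1 of the 31 neighbours. The difference of Krt7 relative to its neighbours is therefore the same number as its excess over Krt8 given above. The neighbour with the largest rise was the adjoining expressed gene Krt80, another type II keratin, at 0.52, the only 1 of the 31 above Krt7. Around Zeb2, on chromosome 2, 26 of 31 did not pass and the median was 0.04, with all 31 below Zeb2. Relative to their neighbours Krt19 was at 0.86, Zeb2 at 0.52 and Krt7 at 0.50, with limma adjusted p-values of 0.000173, 0.00217 and 0.00214. In that fit 16.4% of all genes passed, but genes at or below the median level kept their values without subtraction. The share among expressed genes alone is not given here.

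**Figure D3:**
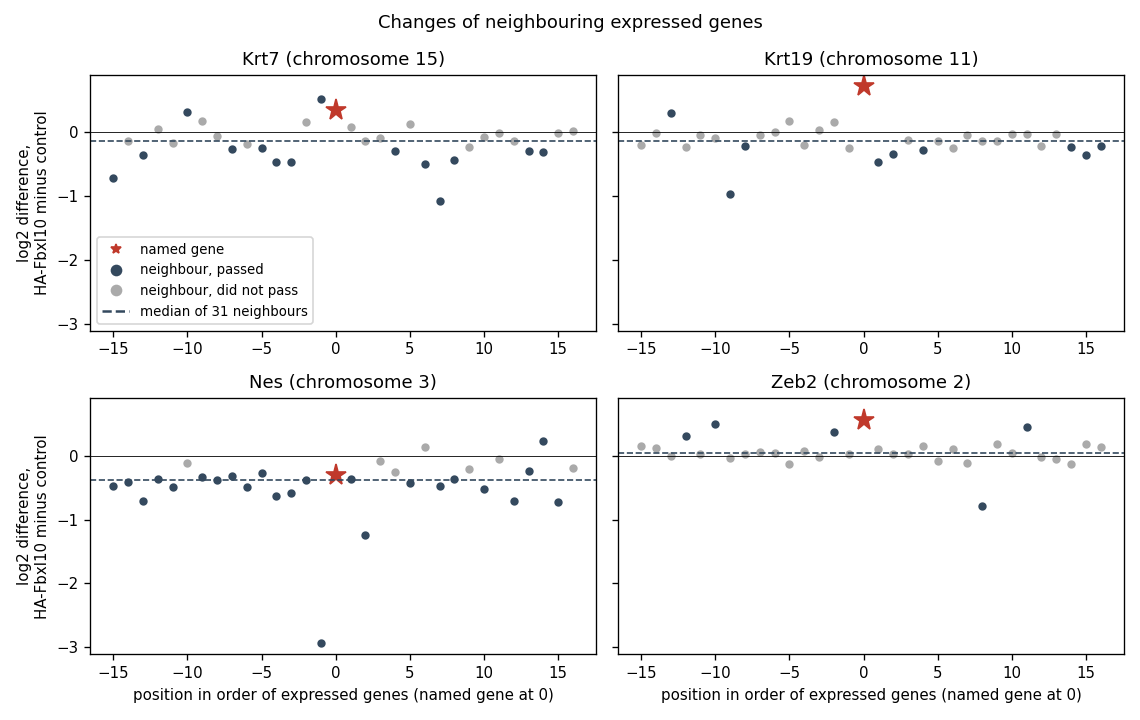
Log2 difference, HA-Fbxl10 minus control, of Krt7, Krt19, Nes and Zeb2 (stars) and of the 31 nearest other expressed genes (points) against their place in the order of expressed genes, with the neighbours' median as a dashed line. Nes at -0.30 lies in a stretch with a median of -0.38, whereas Krt19 and Zeb2 lie above all their neighbours.

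Keratins beyond the simple ones were mostly dim. Of 42 measured, 39 lay below the median level of all genes and 12 below the lower quartile, where signal and background are not told apart. Krt80 rose by 0.52 ± 0.08 (SE, limma adjusted p = 0.00157), 0 fell by limma and 5 had an unadjusted p under 0.05. The share of the list that passed was 2.38%, beside 5.21% of all genes at or below the median level. Without control replicate 2 the count of rising keratins was 2. Krt80 had 6.95, 6.95 and 7.09 in HA-Fbxl10 cells, against 6.53, 6.33 and 6.56 in control cells, with no overlap. The median log2 difference of the list was 0.06, beside -0.0043 over all genes.

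Among 14 other intermediate filament genes, 2 fell and 0 rose by limma, with 3 at an unadjusted p under 0.05, and the list median was -0.04. In this list 14.3% passed, with 6 of the 14 above the median level, beside 21.1% of all genes. Both that fell encode nuclear lamins. Lmna, the A-type lamin gene, had 10.12 ± 0.08 in HA-Fbxl10 cells and 10.63 ± 0.04 in control cells (SD, n = 3 each) and fell by 0.52 ± 0.07 (SE, limma adjusted p = 0.000658). Lmna is on chromosome 3 like Nes, and its neighbours had a median of -0.36. Its call ended relative to them. Lmnb2, a B-type lamin gene, fell by 0.41 ± 0.07 (SE), and by 0.25 relative to its neighbours. Desmin, the muscle filament gene Des, was dim in both groups, at 4.14 ± 0.30 in HA-Fbxl10 cells and 4.33 ± 0.35 in control cells (SD, n = 3 each).

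Of 16 genes for filament linkers and junction plaques, 1 rose and 2 fell (list median -0.05). The share that passed was 18.75%, with 10 of the 16 above the median level, beside 21.1% of all genes. Jup fell by 0.47 ± 0.07 (SE, limma adjusted p = 0.00122). Plec, the plectin gene that links vimentin to other cytoskeletal systems, fell by 0.22 ± 0.07, and Dst, which encodes the linker dystonin, rose by 0.36 ± 0.09. These last calls were weak. That of Plec (adjusted p = 0.0459) ended without any 1 array other than control replicate 1, with adjusted p up to 0.144, and also relative to its neighbours, where the difference was -0.018. That of Dst ended when HA-Fbxl10 replicate 1 or control replicate 1 or 2 was left out, with adjusted p up to 0.0627.

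Of 32 genes of epithelial adhesion and polarity, 30 lay below the median level of all genes, where 5.21% of genes passed. In the list 1 rose and 0 fell by limma, with 1 at an unadjusted p under 0.05, a share near that of other genes of such levels (list median -0.01). The gene that rose, Cd24a, which encodes a surface glycoprotein also made by many non-epithelial cells, rose by 0.37 ± 0.07 (SE, limma adjusted p = 0.00356). Without HA-Fbxl10 replicate 2 the count of rising genes was 2. The E-cadherin gene Cdh1, the classic target of the Snai and Zeb repressors, was at 4.80 ± 0.12 in HA-Fbxl10 cells and 4.82 ± 0.12 in control cells (SD, n = 3 each). Epcam was below the lower quartile of all genes in both groups, at 3.26 ± 0.07 in HA-Fbxl10 cells and 3.26 ± 0.03 in control cells. These 2 genes were picked for their role and with their values seen.

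Mesenchymal genes went in both directions, with 5 of 26 higher and 4 lower (list median -0.05). The share that passed, 34.6%, is near the 37% of all genes above the median level, where 23 of the 26 lay. Cdh2, the N-cadherin gene, had 10.83 ± 0.04 in HA-Fbxl10 cells and 9.43 ± 0.07 in control cells (SD, n = 3 each), a rise of 1.40 ± 0.07 (SE), which is 2.64-fold. Tnc, the gene of the matrix protein tenascin C, rose by 0.80 ± 0.10. The periostin gene Postn fell by 1.93 ± 0.12 and the collagen gene Col3a1 fell by 0.79 ± 0.07. Postn in HA-Fbxl10 cells (4.91) lay below the median level of all genes, where falls are compressed. Without any 1 array other than control replicate 3, the count of rising genes was 3.

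The other factors of the switch also split, with 4 of 26 higher and 8 lower (list median -0.13). In this list 46.2% passed and 21 of the 26 lay above the median level, where 37% of all genes passed. Foxc2, a forkhead factor of mesenchyme, had 7.93 ± 0.03 in HA-Fbxl10 cells and 6.87 ± 0.21 in control cells (SD, n = 3 each) and rose by 1.06 ± 0.10 (SE). Id2, an inhibitor of helix-loop-helix factors, rose by 0.61 ± 0.07. Its relative Id3 fell by 0.69 ± 0.15, with a wide spread in HA-Fbxl10 cells (SD 0.36, n = 3), and the forkhead gene Foxq1 fell by 0.63 ± 0.09. The closest relatives of the set's factors, picked with their values seen, had near-equal levels in the groups. Snai1 was at 7.27 ± 0.03 in HA-Fbxl10 cells and 7.26 ± 0.10 in control cells, and Twist2 was at 7.64 ± 0.08 in HA-Fbxl10 cells and 7.69 ± 0.11 in control cells (SD, n = 3 each). The count of falling factors was 5 without HA-Fbxl10 replicate 2.

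Of 15 genes for corepressors and for turnover of the factors, 1 rose and 0 fell by limma, while 4 had an unadjusted p under 0.05 and the list median was 0.12. In this list 6.67% passed, although 14 of the 15 lay above the median level, where 37% of all genes passed. Ajuba, whose LIM protein is a corepressor of Snai factors, rose by 0.47 ± 0.06 (SE, limma adjusted p = 0.000757). Inducers of the switch had 7 of 23 higher and 3 lower, with a list median of 0.14. Here 43.5% passed and 20 of the 23 lay above the median level, where 37% of all genes passed. The ligand genes Tgfb2 and Tgfb3 rose by 0.96 ± 0.11 and 0.51 ± 0.07 (SE). The growth factor gene Hgf fell by 1.45 ± 0.07, with an HA-Fbxl10 level (3.62) below the lower quartile of all genes. Wwtr1, which encodes the Hippo pathway coactivator TAZ, fell by 0.47 ± 0.06. Wwtr1 is on chromosome 3, where its neighbours had a median of -0.36, and its call ended relative to them.

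**Figure D4:**
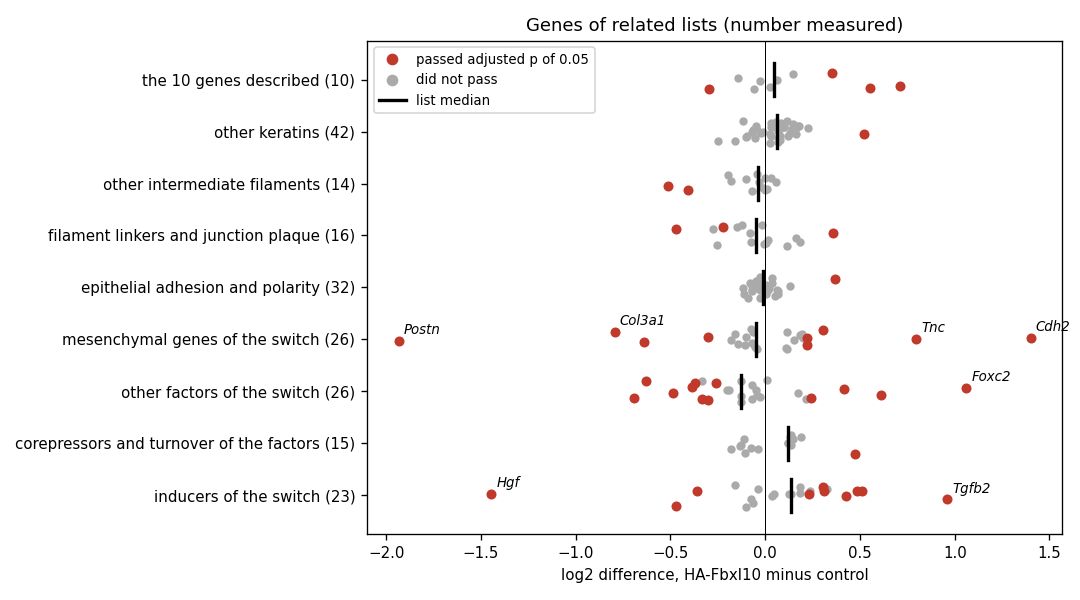
Log2 difference, HA-Fbxl10 minus control, of every measured gene in the 10-gene set and the 8 related lists, with red points for genes past an adjusted p of 0.05 and black bars for list medians; genes past it with a difference over 0.75 in size are named. Other keratins and epithelial genes sit close to 0 with 1 red point each, while mesenchymal genes, factors and inducers spread to both sides. The lists differ in level. Most of the other keratins and epithelial genes lie below the median level of all genes, where 5.21% of genes passed and differences are compressed. Most mesenchymal genes, factors and inducers lie above it, where 37% passed.

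Cell type markers were read beside these results. Fewer cells of a type and less RNA per cell cannot be told apart in such bulk samples. Of 12 fibroblast markers 8 were above the median level of all genes, with Col1a1 at 12.05 ± 0.02 in HA-Fbxl10 cells and 12.21 ± 0.15 in control cells (SD, n = 3 each), while Thy1 was dim in both groups (4.53 ± 0.26 in HA-Fbxl10 cells and 4.59 ± 0.06 in control cells). Of these 12, 4 fell and 0 rose by limma, and 5 had an unadjusted p under 0.05. The share that passed, 33.3%, stands beside 37% of all genes above the median level and 5.21% of the other genes. Those shares count both directions, whereas all 4 calls here were falls. Of all genes 10.6% fell. S100a4, 1 of the 4, fell by 0.64 ± 0.08 (SE), and by 0.36 relative to its neighbours on chromosome 3. The summed level of the list was 13.72 to 13.83 on the log2 scale in HA-Fbxl10 cells and 13.94 to 14.10 in control cells.

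Mesothelial cells, the lining of body cavities, make simple keratins together with mesenchymal genes. Of 11 mesothelial markers, 9 lay below the median level of all genes, 1 rose, which was Krt19 itself, and 1, the mesothelin gene Msln, fell by 0.50 ± 0.07 (SE, limma adjusted p = 0.000697). The share of this list that passed was 18.2%, beside 21.1% of all genes. Upk3b and Wt1, picked for their role and with their values seen, were below the median level of all genes in both groups. The 2 markers above it over all arrays were Krt19 and Msln. The summed level of the list was 10.50 to 10.56 in HA-Fbxl10 cells and 10.29 to 10.41 in control cells, Krt19 included. Krt19 alone had means of 9.79 in HA-Fbxl10 cells and 9.07 in control cells, so it makes up much of that sum. A sum without Krt19 was not computed, so the higher sum does not describe the other markers. Of 13 keratinocyte markers 0 passed in limma (1 had an unadjusted p under 0.05) and 12 were below the median level, Krt5 and Krt14 among them. Their summed level was 8.92 to 8.96 in HA-Fbxl10 cells and 8.82 to 8.85 in control cells. As 0 markers passed and nearly all were dim, this small difference of sums does not describe the single markers. Of 11 neural progenitor markers, which include Nes, 1 rose and 2 fell, but 1 fell without any 1 array other than HA-Fbxl10 replicate 2. With all arrays 27.3% of that list passed, with 4 of the 11 above the median level, beside 21.1% of all genes. The RNA-binding protein gene Msi1 fell by 0.40 ± 0.07 at a level below the median of all genes, and the glutamate transporter gene Slc1a3 rose by 0.40 ± 0.06. The summed level of that list was 10.26 to 10.33 in HA-Fbxl10 cells and 10.17 to 10.20 in control cells. With 7 of the 11 below the median level, this sum does not describe most of the markers either. What part cells of these types have in the changes of Krt7, Krt19 and Nes was not tested.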

How the data were processed

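RNA of 6 samples, 300 ng per array per the labels, was hybridised to Affymetrix arrays. The authors deposited log2 expression values from RMA, as the submitters' processing notes name it. Its version, the genome build and array dates are not stated in the sources used here, and batches were not tested. RMA makes array distributions alike and compresses low values.

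The platform annotation names 1 gene for 21789 of 35556 probe sets, several for 1621 and none given here for 12146. Symbols were updated to the RefSeq table of GRCm38.p6, which served only for names, gene order and promoter sequences. The probe set with the highest mean was used per gene, giving 19936 genes. The test was limma 3.58.1 (R 4.3.3), with no filter on dim genes. Summed marker levels are log2 of the summed unlogged values. It was tested on simulated data of 19936 genes in the same 2 groups, with 200 changed genes above the median level, and recovered 21.3% of changes of 0.3, 66.1% of 0.5 and 96.8% of 1 (log2), with 7 false calls among 125. With so few calls the adjustment was stricter than in the real data, so these shares do not carry over to them.

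The 10 genes, the lists and the alternatives (scaling, dim genes, averaged probe sets, variance models, array weights, replicate block, arrays left out, threshold, neighbouring genes) were chosen with earlier results of these data known. Named beyond the 10 were, per list, the 2 largest rises and 2 largest falls past the threshold. Kdm2b was named as the check of the label. Picked outside this rule, with their values seen, were Des, Cdh1, Epcam, Snai1, Twist2, Col1a1, Thy1, Upk3b, Wt1, Krt5 and Krt14. Neighbours of the genes that passed are described as such. Figures were drawn with matplotlib 3.10.9.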

Additional observations from a re-analysis of the deposited data

How the results depend on the processing

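The rises of Krt7, Krt19 and Zeb2 passed the threshold in all 16 alternative fits and at an adjusted p of 0.01, with log2 differences of 0.29 to 0.50, 0.62 to 0.86 and 0.49 to 0.62. The fall of Nes passed in 7 of 16. The count of falling members, 1, became 0 with array medians subtracted, with the replicate block, at an adjusted p of 0.01, and with the median of the chromosome or of 31 neighbours subtracted, and it ran from 0 to 1 over the single arrays left out. The difference of Nes was 0.086 with the neighbours' median subtracted, and that of Twist1 was then -0.036. Small differences that had not passed changed sign elsewhere: Snai2 was at 0.0096 with array medians subtracted and at 0.0065 with the chromosome median subtracted, and Krt18 ran from -0.15 to 0.029 over the single arrays left out. Krt18, below the median level, has no value in the neighbour and chromosome alternatives. At an adjusted p of 0.01, 1227 genes were higher and 1309 lower.

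The replicate numbers 1 to 3 recur in both groups, and the labels state no pairing. Same-numbered arrays deviated from their group means with correlations of 0.0851, -0.283 and -0.0934. Those of unlike-numbered arrays ran from -0.224 to 0.281. No sign of a pairing was seen, but 3 arrays per group cannot exclude one. With the replicate block Nes had a limma adjusted p of 0.0523 and no other member changed its call. With 3 arrays per group, the 6 genes that did not pass are described by their intervals.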

Other observations

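Of 12 smooth muscle and pericyte markers, 8 of them above the median level of all genes, 2 rose, 3 fell and 7 did not pass, with a list median of -0.012. The share that passed, 41.7%, stands beside 37% of all genes above the median level and 5.21% of the other genes. Mcam, an adhesion molecule gene of pericytes and endothelium, was at 9.40 ± 0.03 in HA-Fbxl10 cells and 7.95 ± 0.13 in control cells (SD, n = 3 each), a rise of 1.45 ± 0.08 (SE, limma). The proteoglycan gene Cspg4 rose by 0.74 ± 0.07, and by 0.47 relative to its neighbours. The receptor gene Notch3 and the smooth muscle actin gene Actg2 fell by 0.54 ± 0.11 and 0.47 ± 0.06, with Notch3 below the median level of all genes in both groups. The call of Actg2 ended relative to its neighbours on chromosome 6. Of 11 endothelial markers 1 rose, Kdr, by 0.51 ± 0.09 at levels below the median of all genes. That is 9.09% of a list with 10 of 11 genes below the median level, where 5.21% of genes passed.

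Of 13 markers of trophoblast and extraembryonic endoderm, which share Krt8 and Krt18 with simple epithelia, 1 rose and 2 fell. The share that passed was 23.1%, beside 21.1% of all genes. The summed level of the list was 10.08 to 10.19 on the log2 scale in HA-Fbxl10 cells and 9.74 to 9.83 in control cells. Bright genes weigh most in such a sum, and 10 of the 13 lay below the median level of all genes. A sum without the rising gene, Dab2, was not computed, so the higher sum does not describe the other markers. The endocytic adaptor gene Dab2 rose by 0.64 ± 0.07 (SE, limma), and by 0.37 with its probe sets averaged, while the transcription factor gene Gata6 and the placental gene Plac1 fell by 0.79 ± 0.11 and 0.51 ± 0.11. In limma 0 of 11 skeletal muscle and 0 of 10 macrophage markers passed, and 0 in either list had an unadjusted p under 0.05.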
